A study of Rattus norvegicus with 172 samples.

Results

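Dentate granule cells of rats kindled to stage 5 in laboratory A were compared with granule cells of that laboratory's control rats. The samples were chosen by their titles, which name the kindling model, the laboratory and either stage 5 or control. This gave 6 stage 5 rats and 6 control rats, 12 of the 164 rats of a study that profiled granule cells in 4 models of epilepsy on 172 Affymetrix arrays. All rats were male Sprague-Dawley animals of 175 to 250 g. Granule cells were cut by laser capture from 10 µm sections of the hippocampus stained with cresyl violet, and caps whose RNA had an integrity number above 7 were combined for each rat until 10 ng or more was in hand. Each of the 12 rats contributed 1 array. Stage 5 rats are labelled as kindled and harvested at stage 5, and control rats as kindling controls of the same laboratory. The site and schedule of stimulation, the interval between the last seizure and harvest, and the handling of the controls are not given in the sources used here. Laboratory A also contributed 6 rats each at stage 2 and stage 4, and laboratory B ran the same 4 groups with 6 rats each.

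In kindling, brief electrical stimulation that at first evokes little behaviour is repeated until it brings on a generalised convulsive seizure, and stage 5 is the name commonly given to that end point. No prolonged status epilepticus is needed, and loss of nerve cells is slight compared with the chemoconvulsant models. Granule cells are the main relay from the entorhinal cortex into the hippocampus. They use glutamate, store peptides and neurotrophins in dense-core vesicles, sprout axon branches after seizures, and are held in check by strong inhibition.

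Each value is an array signal scaled by the authors to a trimmed mean of 150 and analysed as log2(signal + 16). For 10758 genes above the filter on low signal, limma was fitted to all 48 kindling rats, and a gene was called at a Benjamini-Hochberg adjusted p under 0.05. A fold change on this scale understates the change of dim genes. The rats are separate animals. The p-values set each difference against a spread between rats pooled over all 48 kindling rats of both laboratories. Groups differed in that spread: for Gdf10 the SD was 0.997 in stage 5 rats and 0.141 in control rats of laboratory A.

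Markers of the labelled cell type were present. Prox1, the homeodomain factor that sets granule cell identity, had signals of 1591 to 1927 in stage 5 rats and 1640 to 1860 in control rats. Of 14 granule cell markers on the array, 12 exceeded the array median on all 12 arrays, and Tdo2 and Pdzd2 did so on none. Their mean level was 9.34 to 9.64 in stage 5 rats and 9.48 to 9.60 in control rats on the log2 scale, and 0 of 12 tested members passed the test, where 0.976% of all genes did. RNA of other cells was present too: 14 of 17 astrocyte markers, 8 of 16 oligodendrocyte markers and 6 of 18 microglial markers exceeded the median on all arrays, while the microglial markers Aif1, Cx3cr1, Ptprc, Tyrobp, Cd68, Trem2 and Itgam did so on none. Median signal was 30.4 ± 1.78 in stage 5 rats and 31.8 ± 1.61 in control rats (SD, n = 6 each; exact permutation p = 0.206, two-sided). The log2 3′/5′ ratio of Gapdh, a measure of RNA integrity, was 1.01 ± 0.249 in stage 5 rats and 1.24 ± 0.228 in control rats (exact permutation p = 0.117). The same ratio of beta-actin was 3.10 ± 0.157 in stage 5 rats and 3.27 ± 0.195 in control rats (exact permutation p = 0.108; adjusted p = 0.234 for both ratios over 4 measures, where the design allows no p below 0.00217).

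Stage 5 rat 1 stood apart from the other stage 5 rats. On the first principal component of the 12 arrays, which held 26.4% of the variance, it lay at 12.7, among the control rats at 3.79 to 17.4, while the other 5 stage 5 rats lay between -17.3 and -8.42. The same rat stood apart on genes chosen by their difference in laboratory B. Over the 37 genes called at stage 5 in laboratory B, each counted in its laboratory B direction, stage 5 rat 1 had shifted by 0.039 on the log2 scale from the control mean of laboratory A. The other 5 stage 5 rats had shifted by 0.355 to 0.513, and the control rats lay between -0.101 and 0.065. Those 37 genes were called with an error estimated from both laboratories. Over the 68 genes called in a fit to the 24 rats of laboratory B alone, an alternative added after seeing the data, rat 1 was at 0.016, the other 5 stage 5 rats at 0.650 to 0.762 and the control rats at -0.066 to 0.108. Its array was not unusual in 3′/5′ ratios (0.981 for Gapdh and 3.13 for beta-actin), its median signal of 32.7 was the highest of its group, and its median correlation with its own group, 0.979, was the lowest. All its labels give stage 5, and it was kept in the group. Leaving it out is shown as an alternative, since the rat was picked by its profile. A smaller p without this rat follows in part from that choice and is not independent evidence.

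**Figure D1:**
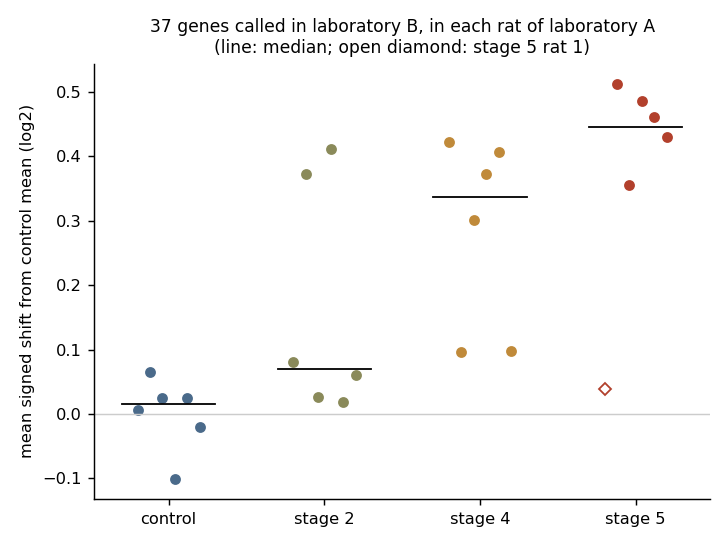
Mean signed shift from the control mean of laboratory A, on the log2 scale, over the 37 genes called at stage 5 in laboratory B, for each of 24 rats of laboratory A. Points are rats, lines are group medians, and the open diamond is stage 5 rat 1 at 0.039; the other 5 stage 5 rats lie between 0.355 and 0.513.

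Stage 5 granule cells differed from control granule cells in 105 genes, 0.976% of those tested. Of these, 43 were higher at stage 5 (0.400%) and 62 were lower (0.576%), with 8 and 15 of them changed at least 2-fold on the log2(signal + 16) scale. The weakest call was Galnt14 (adjusted p = 0.0488) and the first gene outside was Nmb, the neuromedin B precursor (adjusted p = 0.0508). The median log2 fold change of all genes was 0.0044, and 1577 genes had an unadjusted p under 0.05. Stage 5 rat 5 lay beyond all 6 control rats, in the called direction, in 105 of the 105 genes, rats 2, 3, 4 and 6 in 102, 103, 96 and 101, and rat 1 in 32. The 105 genes were called from the values of these same rats, so counts near 105 follow in part from the choice. Rat 1 lay inside the control range in 71 of them. Counts by rat were not made over all tested genes, so the 32 of rat 1 cannot be set against such a share. All 6 stage 5 rats lay above every control in 12 of the 43 higher genes, and below every control in 15 of the 62 lower genes; over all tested genes such separation was found in 73 genes upward (0.679%) and 65 downward (0.604%).

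Without stage 5 rat 1, limma called 456 genes (4.24%), 206 higher and 250 lower, and the 105 genes were all among them. Leaving out any other stage 5 rat left 42, 30, 18, 14 and 19 calls (rats 2 to 6), and leaving out a control rat left 37, 81, 56, 53, 43 and 58 (rats 1 to 6). Fitted to the 4 groups of laboratory A alone, with the spread of stages 2 and 4 in the error, the test called 5 genes: Homer3 higher, and Calhm2, Col25a1, Usp1 and Khdrbs2 lower. The direction of all 105 genes was kept in each of these fits. The fit to laboratory A alone uses the same group means, so there the direction could not change. With 1 rat left out it follows in large part from the choice of the genes in these same rats. In bulk samples such as these, fewer cells that express a gene and less RNA per cell cannot be told apart.

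**Figure D2:**
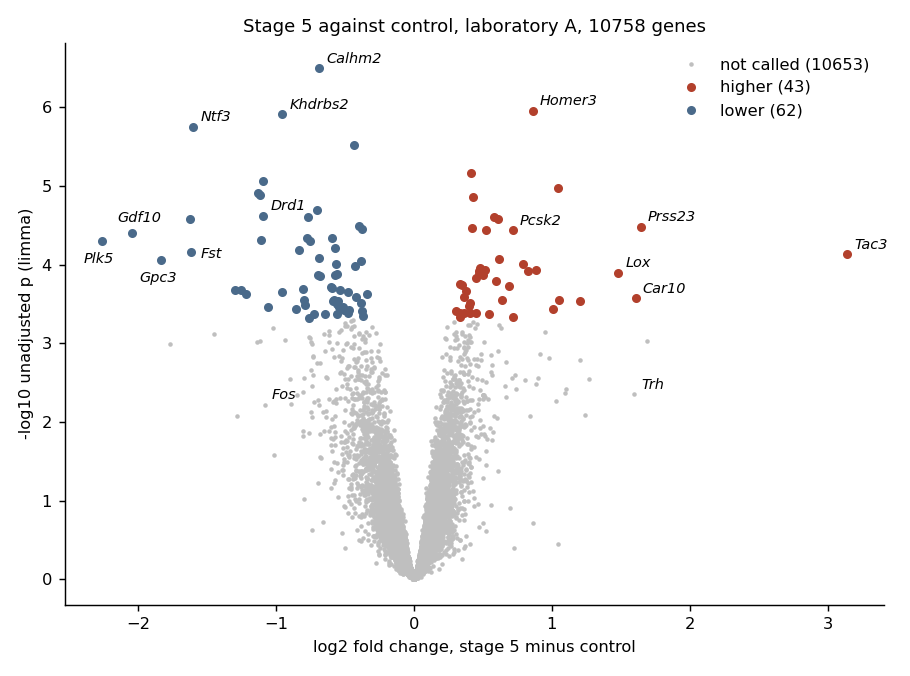
Log2 fold change of stage 5 minus control (horizontal) against -log10 of the unadjusted limma p (vertical) for 10758 genes in laboratory A. Red points are the 43 genes called higher, blue points the 62 called lower and grey points the rest; Tac3 lies farthest right at 3.14 and Plk5 farthest left at -2.26.

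The genes with the largest rises encode a peptide, extracellular enzymes and a carbonic anhydrase-related protein. Tac3, the precursor of neurokinin B, had the largest. Its signals at stage 5 had a lowest value of 33.8, a median of 723 and a highest of 1075, against 22.6, 42.2 and 58.8 in control rats. Stage 5 rat 1 was the one at 33.8, inside the control range, and the other 5 were all above it. The log2 fold change was 3.14 ± 0.72 (SE; adjusted p = 0.0238), and 3.80 ± 0.69 without rat 1.

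Secreted enzymes also rose. Prss23, a serine protease, had signals of 111, 367 and 741 at stage 5 (lowest, median, highest), against 51.5, 94.0 and 139 in control rats, and rose by 1.64 ± 0.36 (adjusted p = 0.0172). Lox, lysyl oxidase, which cross-links collagen and elastin, had 35.0, 102 and 202 at stage 5, against 15.5, 23.1 and 42.9 in control rats, and rose by 1.48 ± 0.35 (adjusted p = 0.0288). Its other probe set moved by 1.21 ± 0.33. For both genes 5 of 6 stage 5 rats exceeded every control, with rat 1 inside the control range.

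Car10 belongs to the carbonic anhydrase-related proteins, which lack the enzyme activity, and is known as a ligand of neurexins. Its signals were 94.3, 201 and 277 at stage 5, against 29.7, 43.4 and 109 in control rats. Rat 1, at 94.3, was below the highest control and the other 5 above it, and Car10 rose by 1.61 ± 0.41 (adjusted p = 0.0401). It was the one member called among 11 measured of the carbonic anhydrase list (9.09%, against 0.976% of all genes).

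Single genes of the peptide pathway rose, and most of those measured did not pass. Of 25 measured neuropeptides, granins and processing enzymes, 2 were higher (8%), none was lower and 23 did not pass. Of all genes 0.976% were called. The median of the list was 0.03. Beside Tac3 the other was Pcsk2, the prohormone convertase PC2, which cuts peptide precursors in dense-core vesicles. Pcsk2 had signals of 196, 365 and 389 at stage 5, against 136, 209 and 234 in control rats; it rose by 0.72 ± 0.16 (adjusted p = 0.0172), with rat 1 the only stage 5 rat inside the control range. Outside the list, and picked after the values were seen, Pcsk1n, whose product proSAAS inhibits the convertase PC1, rose by 0.41 ± 0.11 (adjusted p = 0.0457) and Ptprn, a membrane protein of dense-core vesicles, by 0.55 ± 0.14 (adjusted p = 0.0457).

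Other peptides known to respond to seizures were not called. Trh, the precursor of thyrotropin-releasing hormone, had signals of 41.2, 190 and 547 at stage 5, against 31.9, 45.1 and 111 in control rats. All stage 5 rats but rat 1 were above every control, and the log2 fold change was 1.59 ± 0.53 (adjusted p = 0.125). Npy, the neuropeptide Y precursor, had a log2 fold change of 0.44 ± 0.27 (adjusted p = 0.472), Pdyn, the prodynorphin gene, of -1.01 ± 0.44 (adjusted p = 0.263) and Penk, the proenkephalin gene, of -0.51 ± 0.24 (adjusted p = 0.296). Without rat 1 the list had 6 calls of 25, in a fit that called 4.24% of all genes: Tac3, Trh, Adcyap1, Chgb and Pcsk2 higher and Nmb lower.

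**Figure D3:**
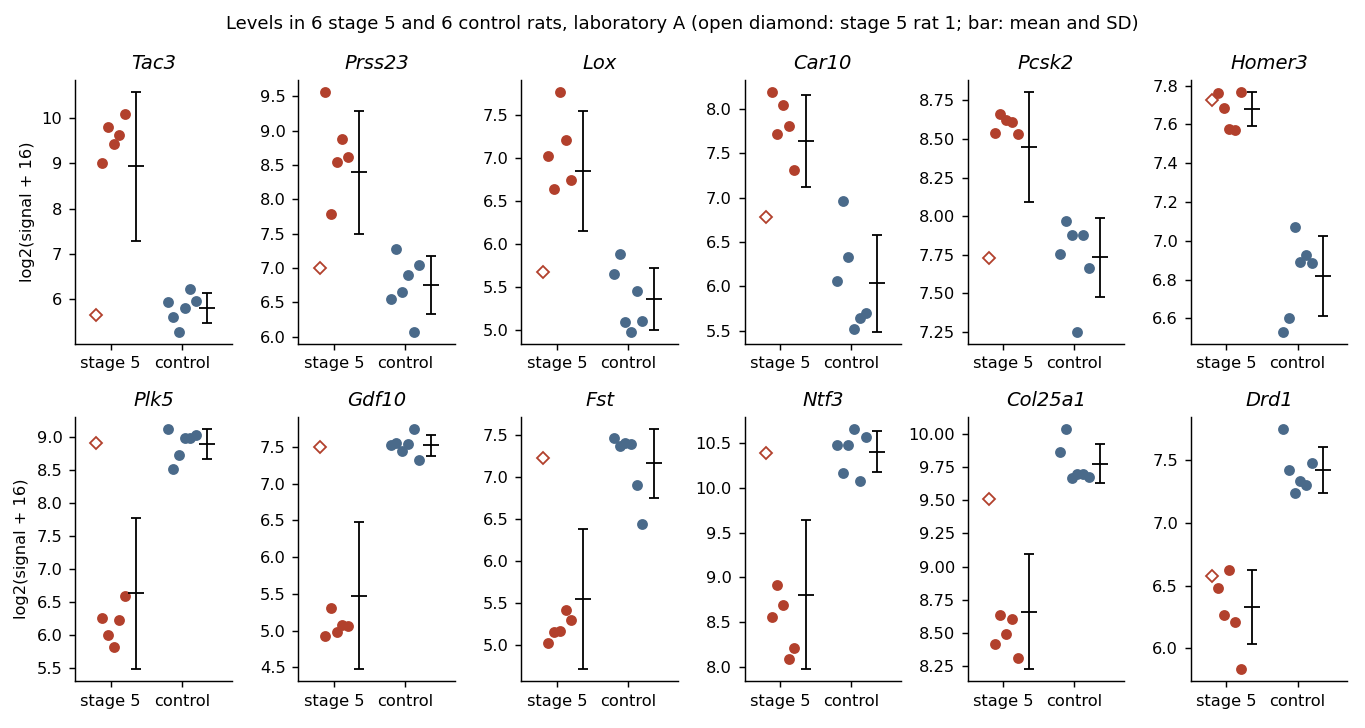
Level, as log2(signal + 16), of 12 called genes in 6 stage 5 rats (red) and 6 control rats (blue) of laboratory A, with mean and SD beside the points. The open diamond is stage 5 rat 1; it lies with the controls for Tac3, Plk5, Gdf10, Fst and Ntf3, and with the other stage 5 rats for Homer3 and Drd1.

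Synaptic genes with rises were Homer3, Slc17a7 and Sema4a. Homer3, a postsynaptic scaffold that links group I metabotropic glutamate receptors to calcium stores, had signals of 174, 193 and 202 at stage 5, against 76.6, 103 and 119 in control rats. All 6 stage 5 rats, rat 1 included, were above every control, and it rose by 0.86 ± 0.15 (adjusted p = 0.00437). A second Homer3 probe set gave 0.13 ± 0.14. Slc17a7, the vesicular glutamate transporter VGLUT1, had 1027, 1299 and 1533 at stage 5, against 779, 1110 and 1119 in control rats. It rose by 0.33 ± 0.09 (adjusted p = 0.0457), with 5 stage 5 rats, rat 1 among them, above every control and rat 2 inside their range. A second Slc17a7 probe set gave 0.20 ± 0.10. Sema4a, a semaphorin that signals through plexins, had 159, 179 and 214 at stage 5, against 131, 137 and 150 in control rats, and rose by 0.34 ± 0.08 (adjusted p = 0.0345) with no overlap. In their lists, 1 of 39 postsynaptic genes (2.56%) and 1 of 24 glutamate genes (4.17%) were called, where 0.976% of all genes were. Of 63 genes of axon guidance and adhesion 2 were called (3.17%). The second was Cdh8, a cadherin, which fell by 0.55 ± 0.14 (adjusted p = 0.0401). None of 32 presynaptic genes passed, but 10 had an unadjusted limma p under 0.05 (31.2%, against 14.7% of all genes). The nearest to passing was Syn2, synapsin II, at 0.39 ± 0.11 (adjusted p = 0.0549). Other Syn2 probe sets gave 0.23 ± 0.20 and 0.22 ± 0.10.

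Further single genes rose. Gadd45a, a p53-responsive gene of growth arrest and DNA demethylation, had 53.8, 181 and 206 at stage 5, against 26.7, 55.3 and 97.6 in control rats, and rose by 1.20 ± 0.31 (adjusted p = 0.0401), the one call among 29 stress genes; rat 1 was the only stage 5 rat inside the control range. Top2a, topoisomerase II alpha of dividing cells, rose by 0.61 ± 0.13 (adjusted p = 0.0165), but its highest signals were low, at 43.5 in stage 5 rats and 15.3 in control rats, and it exceeded the array median in 2 of the 48 kindling rats. It was the one call of 11 proliferation genes, and 0 of 13 markers of immature granule cells were called, where 0.976% of all genes were. E2f1, a cell cycle transcription factor picked after its value was seen, rose by 0.52 ± 0.12 (adjusted p = 0.0288). Necab3, a neuronal calcium-binding protein, had 318, 787 and 857 at stage 5, against 278, 315 and 378 in control rats, and rose by 1.05 ± 0.21 (adjusted p = 0.0137), with rat 1 alone inside the control range. Wls, the carrier that brings Wnt proteins to the cell surface, rose by 1.01 ± 0.26 (adjusted p = 0.0448), and Efr3a, a plasma membrane anchor for a phosphatidylinositol kinase, by 0.89 ± 0.21 (adjusted p = 0.0288). For Efr3a 4 probe sets gave 0.68 to 0.99. The rises of Serinc2, Cbfb, Nabp1, Ss18 and Dbndd1 lay between 0.69 and 1.05.

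The largest falls were those of Plk5, Gdf10, Gpc3, Ddit4l and Fst. Plk5, a brain-expressed polo-like kinase family member, had signals of 40.3, 59.6 and 464 at stage 5, against 350, 490 and 540 in control rats. Rat 1 held the 464 and the other 5 stage 5 rats were below every control. The log2 fold change of Plk5 was -2.26 ± 0.50 (adjusted p = 0.0189), and -2.72 ± 0.48 without rat 1. Ddit4l, an inhibitor of mTOR signalling, had 72.0, 79.6 and 246 at stage 5, against 267, 346 and 415 in control rats. It fell by 1.62 ± 0.35 (adjusted p = 0.0165) in all 6 stage 5 rats, without overlap.

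Gdf10 and Fst were the members of their list that fell. Gdf10, also called BMP3b, a secreted member of the TGF-beta superfamily, had 14.5, 17.5 and 164 at stage 5, against 143, 169 and 198 in control rats. Rats 2 to 6 were below every control, and rat 1 was among the controls. Gdf10 fell by 2.04 ± 0.45 (adjusted p = 0.0177). Fst, follistatin, which binds and blocks activin, had 16.3, 21.5 and 133 at stage 5, against 70.4, 150 and 160 in control rats, with rat 1 alone inside the control range. It fell by 1.61 ± 0.37 (adjusted p = 0.0234), and its other probe set fell by 1.76 ± 0.38. They were the 2 calls among 42 measured genes of the activin, TGF-beta and BMP list (4.76%, against 0.976% of all genes). The list's median was -0.09. Inhba, the activin A subunit that follistatin blocks, had a log2 fold change of -0.51 ± 0.23 (adjusted p = 0.274), and its other probe set gave -0.02 ± 0.14.

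Ntf3, neurotrophin-3, a ligand of TrkC that is expressed by adult granule cells, had signals of 255, 378 and 1325 at stage 5, against 1063, 1418 and 1603 in control rats. Rat 1 was again the highest of its group, and the other 5 lay below every control. Ntf3 fell by 1.60 ± 0.29 (adjusted p = 0.00476), the one call among 31 neurotrophin and growth factor genes (3.23%, against 0.976% of all genes). Bdnf, brain-derived neurotrophic factor, had 340, 753 and 1184 at stage 5, against 334, 416 and 612 in control rats. In 5 of 6 stage 5 rats it was above every control, but its difference of 0.66 ± 0.21 did not pass (adjusted p = 0.113, and 0.00911 without rat 1). Rat 1 was left out for its profile, so the second value is not independent evidence. A second Bdnf probe set gave 0.36 ± 0.21.

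Gpc3 and Col25a1 fell, while Prss23 and Lox of the same list rose. Gpc3, glypican 3, a heparan sulfate proteoglycan that binds growth factors, had 20.7, 25.1 and 173 at stage 5, against 106, 176 and 254 in control rats, with rat 1 alone inside the control range. It fell by 1.84 ± 0.43 (adjusted p = 0.0260). Col25a1, a transmembrane collagen of neurons, had 302, 358 and 713 at stage 5, against 797, 815 and 1035 in control rats, and fell by 1.11 ± 0.23 (adjusted p = 0.0137) without overlap. With Prss23 and Lox these were the 4 calls among 53 matrix and protease genes (7.55%, against 0.976% of all genes). There were 2 in each direction, and the list's median was -0.01. Fat1, a giant protocadherin, fell (-1.30 ± 0.32, adjusted p = 0.0363), as did Boc, a Sonic hedgehog co-receptor (-1.22 ± 0.30, adjusted p = 0.0371), and Ddr2, a collagen receptor kinase (-1.06 ± 0.27, adjusted p = 0.0439). Amotl1, an angiomotin of cell junctions and the Hippo pathway, had 170, 236 and 300 at stage 5, against 409, 496 and 671 in control rats, and fell by 1.11 ± 0.25 (adjusted p = 0.0189) without overlap. Others, picked after their values were seen, were Sdc2, syndecan 2 (-0.60 ± 0.13), Itga11, integrin alpha 11 (-0.58 ± 0.15) and Emilin2, an extracellular glycoprotein (-0.95 ± 0.24). Vstm2l fell (-1.25 ± 0.31, adjusted p = 0.0363), as did Osbpl3, an oxysterol-binding protein relative (-1.13 ± 0.23, adjusted p = 0.0137). A second Osbpl3 probe set gave -0.61 ± 0.28.

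Receptors and calcium and cyclic nucleotide signalling also had lower members. Drd1, the dopamine D1 receptor, which raises cAMP, had signals of 41.1, 67.2 and 82.5 at stage 5, against 135, 150 and 199 in control rats. All 6 stage 5 rats lay below every control, and it fell by 1.09 ± 0.23 (adjusted p = 0.0165). Hrh1, the histamine H1 receptor, had 23.0, 28.2 and 53.6 at stage 5, against 47.5, 60.9 and 72.4 in control rats, and fell by 0.70 ± 0.15 (adjusted p = 0.0165) with rat 1 alone inside the control range. They were the 2 calls of 22 monoamine, acetylcholine, adenosine and cannabinoid receptor genes (9.09%, against 0.976% of all genes). Pde9a, a phosphodiesterase that degrades cGMP, had 93.4, 128 and 154 at stage 5, against 156, 189 and 242 in control rats, and fell by 0.59 ± 0.15 (adjusted p = 0.0361) without overlap.

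Itpr1, the type 1 inositol trisphosphate receptor of calcium stores, had 634, 646 and 1048 at stage 5, against 927, 1043 and 1173 in control rats, and fell by 0.56 ± 0.13 (adjusted p = 0.0288); again rat 1 alone was inside the control range. Necab2, a calcium-binding protein, fell by 0.85 ± 0.22 (adjusted p = 0.0451), while a second probe set gave -0.09 ± 0.22; its relative Necab3 rose, as given above. Kcnq5, a channel subunit of the M-type potassium current, fell by 0.47 ± 0.12 (adjusted p = 0.0457), and its second probe set gave -0.08 ± 0.15. It was the one call of 43 potassium channel genes (2.33%, against 0.976% of all genes). Nr3c1, the glucocorticoid receptor, had 422, 456 and 597 at stage 5, against 520, 628 and 747 in control rats. It fell by 0.38 ± 0.10 (adjusted p = 0.0415), with 4 stage 5 rats below every control. It was the one call of 15 glucocorticoid response genes (6.67%, against the same 0.976%). The smallest p of all belonged to Calhm2, a calcium homeostasis modulator channel protein, which fell by 0.69 ± 0.11 (adjusted p = 0.00343) without overlap. Khdrbs2, an RNA-binding splicing regulator of neurons, fell by 0.95 ± 0.17 (adjusted p = 0.00437). Apoc1, an apolipoprotein, was dim throughout, with 9.13, 18.9 and 30.5 at stage 5, against 26.6, 65.7 and 93.5 in control rats, and fell by 1.09 ± 0.22 (adjusted p = 0.0135), with rat 4 alone inside the control range.

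Several groups that respond to seizures had no call. With 0.976% of all tested genes called, a list of this size can have none without differing from other genes. None of 42 measured immediate early genes passed limma's test; 13 had an unadjusted p under 0.05 (31%, against 14.7% of all genes), and their median was -0.02. Arc, which governs AMPA receptor uptake at synapses, had 51.2, 75.5 and 125 at stage 5, against 113, 139 and 204 in control rats. All but rat 1 were below every control, and the difference was -0.74 ± 0.21 (adjusted p = 0.0628, and 0.0160 without rat 1). Fos, the AP-1 subunit, had 66.6, 117 and 234 at stage 5, against 100, 230 and 651 in control rats, with 2 stage 5 rats below every control and a difference of -1.08 ± 0.37 (adjusted p = 0.138, and 0.0479 without rat 1). Since rat 1 was left out for its profile, the values of Arc and Fos without it are not independent evidence. In laboratory B Arc was called lower, at -1.05 ± 0.21 (adjusted p = 0.0195), and Fos was at -1.47 ± 0.37 (adjusted p = 0.0587). Homer1 was measured by 5 probe sets that did not agree: 3, the one used for the test included, gave -0.16 to -0.09, and the other 2 gave -1.29 ± 0.33 and -1.05 ± 0.32. Those 2 had an unadjusted limma p of 0.000342 and 0.00187, where the weakest called gene had 0.000477. The lack of a call for Homer1 thus rests on the probe set used. Which Homer1 transcripts they read is not given in the sources used here.

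None of 21 GABA system genes passed, with 6 at an unadjusted p under 0.05 (28.6%, against 14.7% of all genes). Gabrd, the delta subunit of receptors outside synapses, had 357, 429 and 686 at stage 5, against 530, 656 and 782 in control rats, a difference of -0.45 ± 0.15 (adjusted p = 0.130, and 0.0262 without rat 1, which was left out for its profile). Gabrb2, the beta 2 subunit, differed by 0.45 ± 0.14 (adjusted p = 0.0867). Kcnd2, the Kv4.2 channel of the A-type current, had 891, 999 and 1204 at stage 5, against 749, 784 and 805 in control rats. There was no overlap, but its difference of 0.35 ± 0.12 did not pass (adjusted p = 0.127), and a second Kcnd2 probe set gave 0.07 ± 0.17. None of 30 sodium, calcium and HCN channel genes, 44 genes of oxidative phosphorylation, 22 of cholesterol synthesis or 23 of inflammation passed, where 0.976% of all genes did. In that order 13.3%, 4.55%, 9.09% and 13% had an unadjusted limma p under 0.05, against 14.7% of all genes. The oxidative phosphorylation genes had positive values in 39 of 44, where 51.4% of all genes did. Their median was 0.06, and -0.01 in laboratory B.

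Markers of other cells gave 0 calls in each list: 8 of CA3 and mossy cells, 8 of CA1 cells, 12 of interneurons, 16 of astrocytes, 15 of microglia, 14 of oligodendrocytes, 11 of vessels, 7 of ependyma and 1 of blood. Lists this short can have no call where 0.976% of all genes were called. The oligodendrocyte list leaned furthest from the others: 0 of 14 values were positive, where 51.4% of all genes were, and the median was -0.31. In laboratory B the list's median was 0.01. In laboratory A its mean level was 6.40 to 7.85 in stage 5 rats and 7.05 to 7.47 in control rats. Without rat 1 its markers Mal, Aspa and Opalin were called lower, 21.4% of the list against 4.24% of all genes; they exceeded the array median on 6, 0 and 1 of the 12 arrays. Gfap, the astrocyte filament gene, had 1024, 1363 and 1502 at stage 5, against 712, 898 and 1509 in control rats (0.45 ± 0.20, adjusted p = 0.271), and the groups overlapped. Calb1, calbindin of mature granule cells, had 704, 1075 and 1576 at stage 5, against 1311, 1359 and 1940 in control rats (-0.44 ± 0.17, adjusted p = 0.199). The part of the shift in oligodendrocyte RNA in the called genes was not tested.

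The earlier stages of laboratory A were measured against the same 6 control rats, so their values are set beside those of stage 5 without a test of likeness. No gene passed the test at stage 2 (0%) or at stage 4 (0%), where 906 and 979 genes had an unadjusted p under 0.05. For Tac3 the log2 difference from control was 1.21 at stage 2, 2.10 at stage 4 and 3.14 at stage 5. For Prss23 it was 0.42, 1.10 and 1.64 in that order, for Plk5 -0.46, -1.64 and -2.26, for Gdf10 -0.71, -1.42 and -2.04, and for Ntf3 -0.52, -0.97 and -1.60. Over the 43 higher genes the median difference was 0.26, 0.39 and 0.52, and over the 62 lower genes the median size of the fall was 0.20, 0.43 and 0.68. The median of all genes was 0.02 at stage 2 and 0.01 at stage 4. Because the genes were chosen for their difference at stage 5, against controls that the earlier stages share, the choice itself favours the largest values at stage 5 and the same sign at stages 2 and 4.

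Within a stage the rats were uneven rather than spread about the mean. On the measure over 37 genes of laboratory B, stage 2 rats 2 and 4 had shifted by 0.373 and 0.411 and the other 4 stage 2 rats by 0.019 to 0.081. At stage 4, rats 1, 3, 4 and 5 had shifted by 0.301 to 0.423, and rats 2 and 6 by 0.096 and 0.098. At stage 5, rats 2 to 6 had shifted by 0.355 to 0.513, and rat 1 by 0.039. For stage 2 rat 4, 1 label contradicts the others about its group, and it was kept in the group that most labels give. Gdf10 signals had a lowest, median and highest value of 25.2, 158 and 177 at stage 2, 12.9, 29.0 and 223 at stage 4, and 14.5, 17.5 and 164 at stage 5, against 143, 169 and 198 in control rats.

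**Figure D4:**
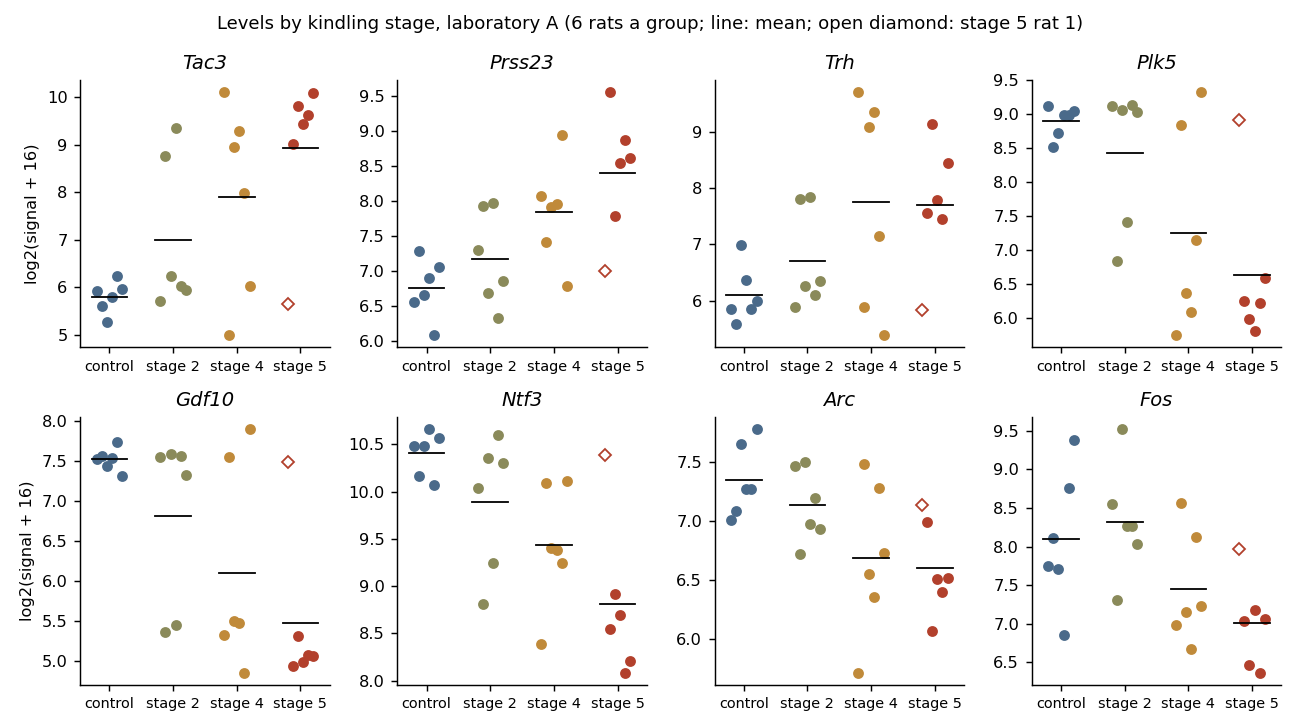
Level, as log2(signal + 16), of 8 genes in 6 control, 6 stage 2, 6 stage 4 and 6 stage 5 rats of laboratory A, with group means as lines and stage 5 rat 1 as an open diamond. For Tac3, Plk5 and Gdf10 the rats of stages 2 and 4 lie in separate high and low clusters, and the share of rats away from the control level is largest at stage 5.

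Stage 5 was also set against stage 4 directly. No gene passed limma's test (0%), 349 genes had an unadjusted p under 0.05, and the smallest adjusted p was 0.999. The smallest unadjusted p was that of Khdrbs2, with a difference of -0.68 ± 0.17 (stage 5 minus stage 4). Without stage 5 rat 1, Khdrbs2 was the 1 gene called (-0.89 ± 0.15, adjusted p = 0.00437).

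Laboratory B shared no rat with laboratory A, so its log2 fold changes come from other animals. The error of the fit is shared, so its p-values are not independent of the choice of the 105 genes. In laboratory B 37 genes were called at stage 5 (0.344%). Of the 105 genes of laboratory A, 104 had the same sign in laboratory B, against 62.3% of all tested genes, and 72 of those 104 had there an unadjusted p under 0.05, against 14% of all genes. Fitted to the rats of laboratory B alone, 77 of the 105 had one (73.3%, against 12.7% of all genes). Mdm4, an inhibitor of p53, was the exception in sign; its log2 fold change was -0.47 ± 0.12 in laboratory A and 0.26 ± 0.12 in laboratory B. In both laboratories 10 genes were called, 9.52% of the 105 and 27% of the 37: Serinc2 and Dbndd1 higher, and Ccdc50, Fndc5, Fst, Mindy3, Sdc2, Ntf3, Itga11 and Ap1s2 lower.

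The sizes were smaller in laboratory B on the whole. The median size over the 105 genes was 0.60 in laboratory A, where they were chosen for it, and 0.34 in laboratory B, counted in the direction of laboratory A, and 97 of them were smaller in laboratory B. Across these genes, which are not independent, the log2 fold changes of the laboratories correlated at r = 0.926, and at r = 0.513 across all tested genes. Tac3 had 2.03 ± 0.72 in laboratory B, Lox 1.42 ± 0.35, Car10 1.58 ± 0.41, Fst -1.58 ± 0.37, Ntf3 -1.21 ± 0.29 and Plk5 -1.05 ± 0.50. Homer3, which separated every rat in laboratory A, had 0.18 ± 0.15 there, Gadd45a 0.22 ± 0.31 and Apoc1 -0.10 ± 0.22. The difference between the effects of the laboratories was tested itself, and no gene passed (0%; 525 at an unadjusted p under 0.05, smallest adjusted p = 0.57). Of the 105 genes, 21 had such an unadjusted p (20%, against 4.88% of all genes), a share that their choice in laboratory A raises. The difference was -0.73 ± 0.17 for Mdm4 (unadjusted p = 0.000106), and for Homer3 it was 0.68 ± 0.22 and for Apoc1 -0.99 ± 0.31 (unadjusted p = 0.00306 and 0.00235). Laboratory B was uneven too: over the 105 genes, its 6 stage 5 rats had shifted by 0.067, 0.098, 0.324, 0.697, 0.762 and 0.772, and its control rats lay between -0.012 and 0.011. Over the same 105 genes, its 6 stage 2 rats lay between -0.119 and 0.009 and its 6 stage 4 rats between -0.111 and 0.053. The shifts given for stages 2 and 4 of laboratory A were taken over the 37 genes called in laboratory B. The earlier stages of the laboratories were thus not compared on the same measure.

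**Figure D5:**
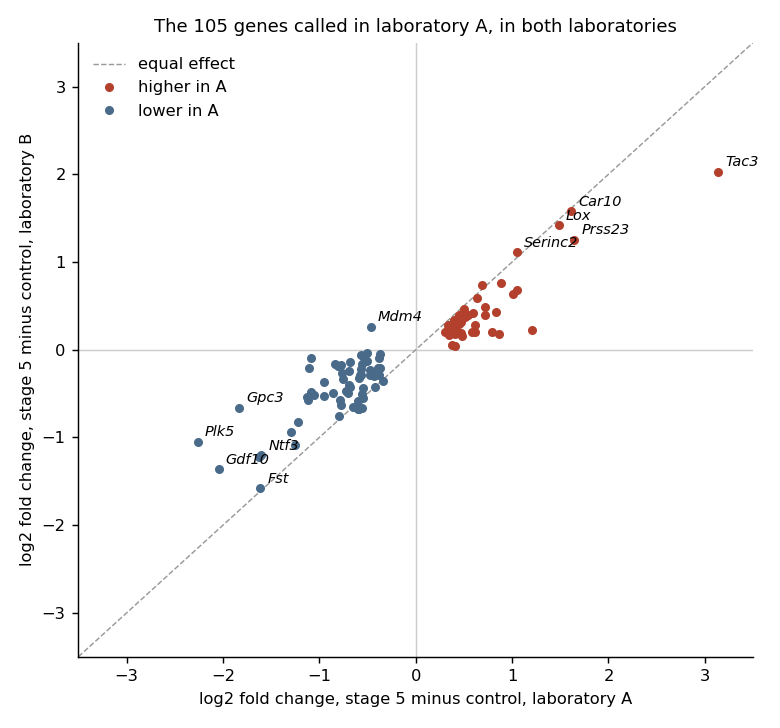
Log2 fold change of stage 5 minus control in laboratory A (horizontal) and in laboratory B (vertical) for the 105 genes called in laboratory A, red where higher and blue where lower there. All but Mdm4 have the same sign in both, and 97 of the 105 points are nearer to 0 in laboratory B; the dashed line marks equal effects.

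Promoter sequence was at hand for 85 of the 105 genes, as RefSeq windows in build GRCr8 of 250 bases before to 50 after a transcript start, and was searched on both strands for motifs of factors that neuronal activity induces or activates. The EGR site, GCGNGGGCG, was in 7 of 35 higher genes (20%), 12 of 50 lower genes (24%) and 11.1% of 8969 tested genes with a window. The full cAMP response element, TGACGTCA, was in 5.71% of the higher, 2% of the lower and 3.37% of all genes, its short form TGACG in 34.3%, 22% and 33.4%, and the AP-1 site, TGANTCA, in 2.86%, 2% and 5.22%. Short forms inside full elements were counted for both. The E-box, CACGTG, was in 2.86% of the higher, 4% of the lower and 10.1% of all genes. These shares were not tested, and the GC content of the gene sets was not compared. Among windows drawn, those of Homer3, Car10 and Drd1 held none of the motifs searched. Below are the windows of Pcsk2, which rose, and of Gdf10 and Gpc3, which fell, chosen because they hold one of these motifs and show how GC-rich such windows are (73.3%, 76% and 71% G or C); capitals mark EGR sites and TGACG or its reverse complement.
Pcsk2, chr3:151333688-151333987, plus strand: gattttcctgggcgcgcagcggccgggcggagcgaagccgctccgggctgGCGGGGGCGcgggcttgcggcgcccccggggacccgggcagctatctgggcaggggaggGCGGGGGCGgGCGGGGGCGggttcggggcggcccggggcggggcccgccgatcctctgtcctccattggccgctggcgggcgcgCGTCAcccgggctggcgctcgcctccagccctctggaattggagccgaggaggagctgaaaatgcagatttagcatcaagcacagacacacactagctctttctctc
Gdf10, chr16:9243262-9243561, plus strand: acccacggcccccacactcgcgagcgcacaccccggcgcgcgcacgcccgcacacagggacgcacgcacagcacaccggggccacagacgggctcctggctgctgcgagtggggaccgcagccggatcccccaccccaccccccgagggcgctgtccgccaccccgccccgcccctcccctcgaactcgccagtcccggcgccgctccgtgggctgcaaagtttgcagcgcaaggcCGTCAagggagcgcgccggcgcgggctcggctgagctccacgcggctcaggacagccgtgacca
Gpc3, chrX:137157549-137157848, minus strand: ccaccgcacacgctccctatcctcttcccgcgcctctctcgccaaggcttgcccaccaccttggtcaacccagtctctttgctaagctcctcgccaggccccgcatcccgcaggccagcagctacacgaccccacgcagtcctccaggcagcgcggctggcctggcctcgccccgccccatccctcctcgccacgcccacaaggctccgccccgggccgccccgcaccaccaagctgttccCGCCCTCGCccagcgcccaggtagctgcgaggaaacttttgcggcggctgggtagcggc
The Pcsk2 window has 3 EGR sites and 1 TGACG, the Gdf10 window 1 TGACG and the Gpc3 window 1 EGR site. These are matches of letters, and Egr1 itself, which encodes one factor that binds such sites, differed by 0.04 ± 0.10 between stage 5 and control rats (adjusted p = 0.906).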

How the data were processed

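Values were array intensity signals deposited by the authors, computed with MAS5 per the submitters' processing notes. In the deposited tables each array had a 2% trimmed mean of 150.04 to 150.06, and detection calls were not used here. No column of the tables was left unmatched to a sample. Of 31099 probe sets, 57 are controls, 20826 carry 1 gene symbol in the platform annotation, 436 several and 9780 none. Only probe sets with 1 symbol, above the array median in at least 6 of the study's 164 rats, were used, and each gene was represented by its brightest of those probe sets, which gave 10758 genes. Of these, 1082 exceeded the median in fewer than 6 of the 48 kindling rats, among them 3 called genes, Lman1, Top2a and Fam167a.

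Signals were analysed as log2(signal + 16) with limma 3.58.1 in R 4.3.3, fitted to the 8 kindling groups (48 rats, 6 per group) with no covariate, moderated by eBayes and adjusted by Benjamini-Hochberg. Quality measures were compared by exact permutation of the 12 rats. On simulated arrays of this design, 99 of 100 genes changed by 1 on the log2 scale and 100 of 100 changed by 2 were recovered. There were 7 false calls of 206. These shares describe the simulated arrays only. In the real arrays the spread differed between groups, as given above, and calls ranged from 14 to 456 with rats left out in turn. The shares of recovered changes and of false calls in the real arrays were not measured. The number of arrays limits the precision.

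Named genes are called genes with the 15 highest and 15 lowest fold changes, up to 6 called members of each of 34 lists (or up to 3 by smallest p where none was called), a fixed set of seizure-related genes, and up to 10 genes by smallest p for the other comparisons; others are said to be picked after their values were seen. The groups, lists and genes were chosen with earlier results of these data known. Alternatives covered the pseudocount, normalization, filter, probe sets, groups in the fit, a replicate block, array weights, RNA integrity and each rat left out. Promoter sequences are those of RefSeq.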

Additional observations from a re-analysis of the deposited data

Results flagged for a closer look

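Among 67 named genes, in 134 groups of 6 rats, the most extreme rat lay apart from the nearest other rat by more than 0.625 of the group's range in 24 cases, where chance gives about 1 in 20 groups. Of these, 21 were in the stage 5 group, and in all 21 the rat was stage 5 rat 1. On the log2(signal + 16) scale it was the lowest of its group for Tac3 (5.64, the nearest other rat 9.02), Gadd45a (6.12), Serinc2 (7.25), Necab3 (8.39), Ss18 (9.72), Pcsk2 (7.73) and Syn2 (9.98). It was the highest for Plk5 (8.91, the nearest other rat 6.60), Gdf10 (7.49), Gpc3 (7.56), Ddit4l (8.03), Fst (7.22), Ntf3 (10.39), Fat1 (9.16), Vstm2l (7.87), Osbpl3 (7.28), Col25a1 (9.51), Kcnq5 (8.79), Necab2 (8.31), Itpr1 (10.05) and Khdrbs2 (8.58). Its mean shift over the 37 genes called in laboratory B, 0.039, was apart from the next value of 0.355 in the same way. These genes share the rat, so the cases are not independent.

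In the control group the cases were Pcsk1n, highest in rat 4 at 10.02, E2f1, lowest in rat 1 at 5.12, and Emilin2, lowest in rat 2 at 6.12. Of the array measures, control rat 2 had the highest median signal of its group, 35.0, and the lowest median correlation with its group, 0.978. Stage 5 rat 2 had the highest log2 Gapdh 3′/5′ ratio of its group, 1.496.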

How the results depend on the processing

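In all fits listed here the 105 genes kept their direction where tested, which follows in large part from their choice in these same rats. The count of calls moved. It was 77 and 108 with pseudocounts of 1 and 32, 97 after quantile normalization, 71 without and 120 with a stricter filter (99 of the 105 tested), 112 with the mean over probe sets, 122 with only the groups compared (66 of the 105 among them), 124 with a trended robust eBayes and 83 with the actin ratio as a covariate. It moved further to 5 with the 4 laboratory A groups alone, 25 with all 28 groups of the study and 616 with array weights. Covariates chosen after seeing the data gave 71 (Gapdh ratio, 58 of the 105 among them) and 35 (median signal, 33 among them). With rats left out in turn, calls ranged from 14 to 456 for stage 5 against control, from 0 to 1 for stage 5 against stage 4, and were 0 in each case for the difference between laboratories. Same-numbered stage 5 and control rats correlated at 0.068 to 0.271 in their deviations, 3 of 6 best with their own number, so numbers were not taken as pairs; the replicate block gave 133 calls, and 1, Fbxo15, for the difference between laboratories, where no other setting gave any. Of the called genes named, 814 of 1320 refits passed the test, and of the others 26 of 486 did. Prox1, at 0.03 and not called, changed sign to -0.0376 after quantile normalization and ranged from -0.0001 to 0.0546 with rats left out. The causes of these moves were not tested. The number of rats, 6 a group, and dim probe sets such as those of Gdf10, Fst and Lox, limit the sizes given.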

Other observations

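Several gene groups had members that missed the threshold with all 12 rats and passed it without stage 5 rat 1. That rat was left out for its profile, so these values describe the other 5 stage 5 rats and the limma calls among them are not independent evidence. The genes named were picked after their values were seen, and values are log2 fold changes of stage 5 minus control ± SE. Axon guidance and adhesion had 2 higher and 8 lower genes of 63 in that fit (15.9%, against 4.24% of all genes), Sema4a and Cdh8, called with all rats, included. Cdh13, T-cadherin, was at -2.08 ± 0.51 without rat 1 and at -1.77 ± 0.50 with it (adjusted p = 0.0116 and 0.0628). Sema3e, a secreted semaphorin, was at -1.28 ± 0.26 without and -1.02 ± 0.28 with it, Nrp2, a semaphorin 3 co-receptor, at -0.72 ± 0.17 and -0.59 ± 0.17, and Cntnap2, a neurexin family adhesion protein, at -0.69 ± 0.15 and -0.54 ± 0.16. Ephb6, a kinase-dead Eph receptor, was at 1.04 ± 0.28 without and 0.92 ± 0.27 with rat 1, and all 6 stage 5 rats were above every control. In laboratory B, which shares no rat, Sema3e was at -0.82 ± 0.28, Ephb6 at 0.81 ± 0.27, Cntnap2 at -0.36 ± 0.16, Cdh13 at -0.95 ± 0.50 and Nrp2 at -0.15 ± 0.17.

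In the activin, TGF-beta and BMP list, 2 genes were higher and 4 lower of 42 without rat 1 (14.3%, against 4.24% of all genes). Fst and Gdf10, called with all rats, are included. Acvr1c, the type I receptor ALK7, was at 1.19 ± 0.25 without and 0.95 ± 0.26 with rat 1, and Smad3, a transcription factor downstream of activin and TGF-beta receptors, at 0.44 ± 0.12 and 0.35 ± 0.12. In laboratory B Acvr1c was at 0.90 ± 0.26 and Smad3 at 0.44 ± 0.12. Igfbp5, an insulin-like growth factor binding protein, was at -1.70 ± 0.40 without and -1.45 ± 0.40 with rat 1 (-1.17 ± 0.40 in laboratory B), Egfr, the epidermal growth factor receptor, at -1.05 ± 0.25 and -0.80 ± 0.27 (-0.91 ± 0.27), and Mmp9, a matrix metalloprotease, at 1.14 ± 0.30 and 0.98 ± 0.29 (0.62 ± 0.29). Adcy8, a calcium-stimulated adenylyl cyclase, was at -1.13 ± 0.29 and -0.81 ± 0.31 (-0.79 ± 0.31).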
